A study of Homo sapiens with 24 samples.

Results

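The 191 regions described here held peaks of 2 or more KRAB zinc finger proteins (KZFPs). They were chosen by the peak lists themselves. Peaks with a score above 80 of all 21 KZFP libraries were pooled, peaks overlapping by at least 1 bp were merged, and regions within 1 Mb of a run of at least 50 kb of unsequenced bases in hg19 were left out. The merging of 31717 peaks gave 31218 regions, of which 28025 lay away from assembly gaps. Peaks of 1 KZFP made up 27834 of these, so that the shared regions were 0.682% of the total. A further 130 shared regions lay within 1 Mb of a gap and were set aside.

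The study mapped the genomic targets of HA-tagged KZFPs in HEK 293T, a line of human embryonic kidney cells. Cells were transduced with a KZFP under a doxycycline-dependent promoter and carrying 3 HA tags, selected with puromycin at 1 μg/ml for 7 days and induced with doxycycline at 1 μg/ml. Chromatin was precipitated with 15 μg of anti-HA antibody, either as ChIP-exo (15 KZFPs), in which an exonuclease trims the bound DNA, or as ChIP-seq (6 KZFPs and 293Tctrl, the control cells). Each KZFP had 1 library from overexpressing cells and no replicate, with reads of 100 bases for ChIP-exo and 85 bases for ChIP-seq (at least about 15 and 27 M per library, according to the labels).

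KZFPs form the largest family of human transcription factors. Their arrays of C2H2 zinc fingers read long stretches of DNA, most often within transposable elements, and the KRAB domain of most members recruits the corepressor KAP1 (TRIM28), which brings in histone methylation and heterochromatin proteins. Since each array has its own fingers, different KZFPs usually bind different sequences.

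Stretches of 50 bases are shown first for the regions of ZNF160 and ZNF416, since a single 10-letter word recurred at them. The word TGCTTGAAAA is in capitals, and all sequences are from hg19, read 5′ to 3′ on the strand given.
PALB2, chr16:23650813-23650862, + strand: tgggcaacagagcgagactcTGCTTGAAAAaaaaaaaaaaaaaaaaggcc
Intergenic, chrX:84663459-84663508, - strand: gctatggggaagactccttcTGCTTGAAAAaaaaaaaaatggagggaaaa
WASF1 intron, chr6:110435976-110436025, + strand: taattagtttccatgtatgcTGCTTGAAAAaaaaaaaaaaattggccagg
DET1 intron, chr15:89049650-89049699, - strand: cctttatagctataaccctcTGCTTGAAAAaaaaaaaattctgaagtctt
MAML3 intron, chr4:140958370-140958419, + strand: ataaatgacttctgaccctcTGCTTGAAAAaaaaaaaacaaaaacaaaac

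Regions of ZNF251 and ZNF724P are shown with the word AAAGTCCAAG in capitals. This word was the one that best set apart the peaks of ZNF724P outside shared regions.
ZNF251 and ZNF724P, intergenic, chr4:115479849-115479898, - strand: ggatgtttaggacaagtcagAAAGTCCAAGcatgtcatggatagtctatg
ZNF251 and ZNF724P, LINS1 intron, chr15:101129002-101129051, + strand: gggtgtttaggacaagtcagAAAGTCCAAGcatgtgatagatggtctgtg
ZNF251 and ZNF724P, intergenic, chr1:173466033-173466082, + strand: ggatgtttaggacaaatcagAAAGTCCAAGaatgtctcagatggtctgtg
ZNF251 and ZNF724P, PIGK intron, chr1:77641060-77641109, + strand: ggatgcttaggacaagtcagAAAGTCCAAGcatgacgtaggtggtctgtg

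The middle 200 bases of the peaks' overlap are shown for the region with most KZFPs, for the highest 2-KZFP region of the 2 most frequent pairs, and for regions at 2 promoters. They show how unlike the shared regions were, from a run of G to sequence of mixed bases. The latter was not free of repeats. WindowMasker marked 53.5% of the CDH11 region and 40.3% of the CDC27 region as repeated.
LINC00486, 11 KZFPs, chr2:33141413-33141612, + strand: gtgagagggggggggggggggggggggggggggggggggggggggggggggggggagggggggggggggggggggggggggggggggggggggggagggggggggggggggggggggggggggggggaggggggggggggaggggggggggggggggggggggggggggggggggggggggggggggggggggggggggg
C2orf88, ZNF160 and ZNF251, chr2:190847225-190847424, + strand: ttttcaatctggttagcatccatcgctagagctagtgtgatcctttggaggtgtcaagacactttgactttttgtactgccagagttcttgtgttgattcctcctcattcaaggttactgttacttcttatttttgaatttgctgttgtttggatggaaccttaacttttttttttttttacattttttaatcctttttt
Intergenic, ZNF251 and ZNF724P, chr13:70060193-70060392, + strand: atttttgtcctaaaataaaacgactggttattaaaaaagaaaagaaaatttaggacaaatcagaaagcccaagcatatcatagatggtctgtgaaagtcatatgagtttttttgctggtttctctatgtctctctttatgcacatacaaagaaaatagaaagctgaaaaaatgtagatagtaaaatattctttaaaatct
CDH11, 4 KZFPs, chr16:65158624-65158823, + strand: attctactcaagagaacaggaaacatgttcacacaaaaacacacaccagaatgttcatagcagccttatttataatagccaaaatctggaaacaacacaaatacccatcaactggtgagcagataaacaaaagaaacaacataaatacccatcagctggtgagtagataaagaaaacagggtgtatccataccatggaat
CDC27, 4 KZFPs, chr17:45212986-45213185, + strand: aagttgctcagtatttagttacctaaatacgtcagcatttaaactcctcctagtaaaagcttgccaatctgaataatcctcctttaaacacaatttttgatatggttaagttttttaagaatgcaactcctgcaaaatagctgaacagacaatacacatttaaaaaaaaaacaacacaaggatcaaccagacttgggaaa

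Most shared regions had peaks of exactly 2 KZFPs. There were 161 regions with 2 KZFPs, 15 with 3, 8 with 4 and 4 with 5, and 3 regions had 8, 10 and 11. In 189 of the 191 regions all peaks had a stretch in common. The shared regions were 121 to 3268 bp long, with a median of 642 bp against 456 bp for regions of 1 KZFP, which follows in part from the merging. The MACS score of a peak is the negative log10 of its p-value multiplied by 10. Many regions were shared by a narrow margin, with a median second highest score of 115, a second score below 100 in 64 regions and above 300 in 11. The 3 regions just inside the threshold had second scores of 80.15, 80.34 and 80.34, and the 3 regions just outside had second scores of 79.92, 79.89 and 79.44. By distance, the 2 regions just inside lay 1119735 and 1219762 bp from a gap, and the 2 just outside 991176 and 968480 bp. None of the 191 regions overlapped a peak of the 293Tctrl library, which allows a share of up to 1.57% (3 counts of 191) by counting error alone, and neither did any region of 1 KZFP. This library had 163 peaks in all. It was made by ChIP-seq, while only 21 shared regions had peaks from both assays and 1 from ChIP-seq alone. With no overlap in either kind of region, its peaks cannot show whether a region holds background signal.

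Of the 21 KZFPs, 18 had at least 1 shared region. The largest lists contributed most, with ZNF251 in 134 of the 191 regions and ZNF160 in 80, and 21 regions held neither. These were small shares of both lists. ZNF251 shared 0.708% of its 18914 regions and ZNF160 1.4% of 5714. ZNF416 shared 27 of its 53 regions (50.9%, exact 95% interval 36.8 to 64.9), ZNF546 7 of 18 (38.9%, 17.3 to 64.3) and ZKSCAN4 11 of 45 (24.4%, 12.9 to 39.5). All 8 regions of ZNF729 away from gaps were shared. ZNF724P (30 of 445), ZNF578 (28 of 707), ZNF850 (24 of 404), ZNF746 (20 of 239), ZFP28 (19 of 966), ZKSCAN7 (18 of 287), ZNF763 (15 of 162) and ZNF34 (12 of 63) lay between. ZNF446 had 8 of 74, ZNF195 4 of 98, ZNF20 2 of 83 and ZNF256 its only region. ZNF213 and ZKSCAN8 had no region above the threshold away from gaps, and the single region of ZNF597 was not shared. ZNF724P had its higher-scoring peaks in shared regions, with a median score of 244 against 156 in its other regions. The same held for ZNF763 (129 against 91.7) and ZNF416 (138 against 92.6). The median was also higher in shared regions for ZNF195, ZNF446, ZNF34, ZNF160, ZKSCAN4, ZKSCAN7, ZNF546 and ZNF746. For ZFP28 the shared peaks were the lower ones, at 115 against 154. They were lower too for ZNF578 (109 against 128), ZNF850 (119 against 128), ZNF251 (174 against 186) and slightly for ZNF20 (110.4 against 110.5). The rule used these scores, so this is a description. Only 1 region was shared by ChIP-seq libraries alone, ZNF20 and ZNF256, and 21 regions had peaks from both assays.

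The pairs were spread widely. Of 210 possible pairs, 102 shared a region, 28 of them only 1 and 22 of them 5 or more. ZNF160 and ZNF251 shared 44 regions, which were 0.770% of ZNF160 regions and 0.233% of ZNF251 regions. ZNF251 shared 27 regions with ZNF724P (6.07% of the ZNF724P regions), 18 with ZNF746 (7.53% of ZNF746), 16 with ZNF850 (3.96% of ZNF850) and 15 with ZNF578 (2.12% of ZNF578). The 21 regions of ZNF160 and ZNF416 were 39.6% of all ZNF416 regions and 0.368% of ZNF160 regions. ZNF578 shared 11 regions with ZNF160 and 10 with ZNF416, and 9 were shared by ZKSCAN7 and ZNF160. Smaller sets joined KZFPs with short lists, such as ZNF34 and ZNF763 (6 regions), ZKSCAN7 and ZNF763 (6) and ZFP28 and ZNF729 (5). Regions with many KZFPs enter several pairs, and the rule counts overlaps, so these numbers are a description without a test.

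**Figure D1:**
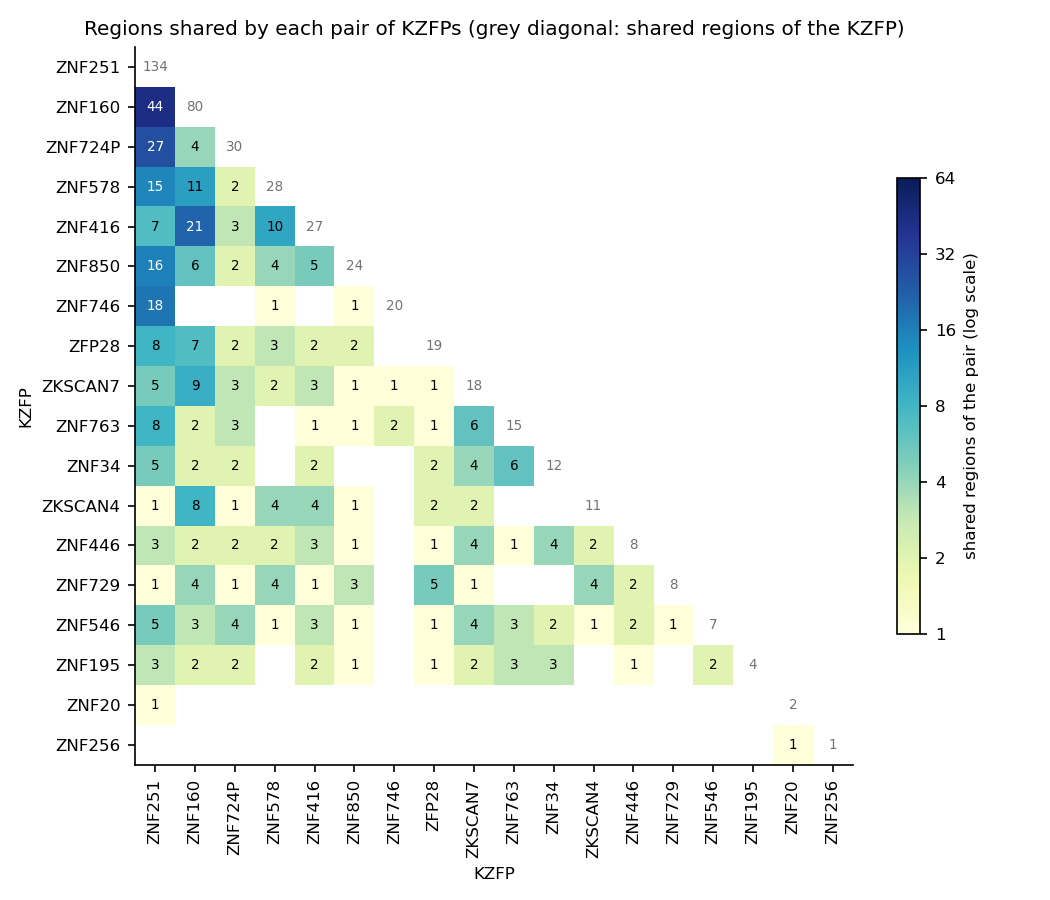
Number of shared regions for each pair of the 18 KZFPs (color, log scale, and digits), with the shared regions of each KZFP in grey on the diagonal. The ZNF251 and ZNF160 columns hold most of the regions, led at an overlap of 1 bp by their own pair with 44, which had 16 when 50% of the shorter peak had to overlap.

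The peaks of a pair were placed in different ways. The peaks of ZNF160 and ZNF251 usually touched at their flanks, with a median of 340 bp between their midpoints and an overlap of 36.3% of the shorter peak. Only 9 of these 44 regions had midpoints within 100 bp. The peaks of ZNF251 and ZNF746 were placed alike, at a median of 330.5 bp and with 2 of 18 within 100 bp. In contrast, the midpoints lay a median of 46 bp apart for ZNF160 and ZNF416, with an overlap of 100% of the shorter peak, and 78 bp apart for ZNF251 and ZNF724P, with an overlap of 95%. ZNF251 and ZNF850 (69 bp), ZNF251 and ZNF578 (79 bp), ZNF160 and ZNF578 (32 bp) and ZNF416 and ZNF578 (52.5 bp) were also nearly concentric. Ranked by the lower of the pair's scores, the highest regions of ZNF160 and ZNF251 were in an intron of C2orf88 (748 and 1248) and between genes on chromosome 13 (1655 and 421). Those of ZNF251 and ZNF724P were a LINC00486 intron and an intergenic region of chromosome 13 (957 and 372). For ZNF251 and ZNF850 they were lower, in an intron of PPM1D (140 and 142) and 159 bp from a TSS of CTNNBIP1 (117 and 121). When an overlap of at least 50% of the shorter peak was required, 138 regions were shared in place of 191, and the order of the pairs changed. ZNF160 and ZNF251 then had 16 regions in place of 44, fewer than ZNF251 and ZNF724P (26) and ZNF160 and ZNF416 (20), and ZNF251 and ZNF746 had 9 in place of 18.

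**Figure D2:**
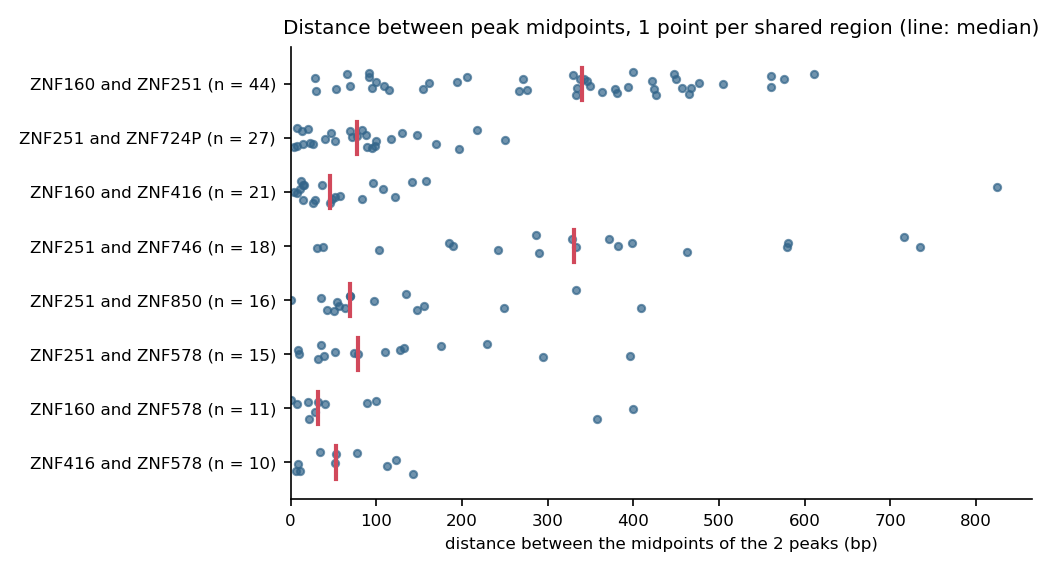
Distance in bp between the midpoints of the 2 peaks for the 8 most frequent pairs, with 1 point per shared region and the median as a line. The peaks of ZNF160 and ZNF251 and of ZNF251 and ZNF746 lay a median of over 300 bp apart, and those of the other 6 pairs under 100 bp.

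The region with most KZFPs was an intronic stretch of LINC00486, a long non-coding RNA gene, at chr2:33141068-33141765. Peaks of 11 KZFPs were called there, with scores of 3100 for ZNF34, 2822 for ZNF763, 2596 for ZNF195, 1919 for ZKSCAN7, 1190 for ZNF251, 736 for ZNF546, 301 for ZNF446, 297 for ZNF724P, 269 for ZNF416, 115 for ZFP28 and 83.9 for ZNF160. The 200 bases shown above were 96.5% G, with a run of 59 G. The whole region was marked as low-complexity sequence. A second intronic region of LINC00486, chr2:33091745-33092256, had peaks of 5 KZFPs (ZKSCAN4, ZKSCAN7, ZNF160, ZNF416 and ZNF578) with scores of 97.9 to 319. It was 99.6% low-complexity as well, but the GC content of its middle 200 bases was 9.0%.

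The region with 10 KZFPs lay in an intron of SENP5, which encodes a SUMO-specific protease. WindowMasker marked 79.1% of this region as repeated. CCATT occurred 10 times in the 200 bases at the middle of the peaks' overlap. The score was 3001 for ZNF160, 1248 for ZKSCAN4, 828 for ZNF729, 573 for ZNF416 and 396 for ZNF578, and between 142 and 241 for the other 5. Its middle 200 bases had 11 near-identical copies elsewhere in hg19, counted at 95% identity or more over at least 80% of the length. An intronic region of RMDN2 had peaks of 8 KZFPs, none above a score of 181, and 190 such copies. Near-identical copies were rare otherwise, at 14 of the 191 regions in all, and 3 regions were at least 90% low-complexity. In regions with many copies the origin of a read depends on how the aligner placed it.

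Next in order stood chr16:23650667-23651121, over an exon of a non-coding transcript of PALB2, whose product binds BRCA2 in DNA repair. WindowMasker marked 100% of this region as repeated. ZNF160 and ZNF416 both reached 3100 there, with 1287 for ZNF578, 393 for ZNF724P and 179 for ZNF251. Of the other regions with most KZFPs, 2 were intergenic on chromosome 6 and 2 lay in ANKRD30BL introns, each of the latter with peaks of ZFP28, ZNF578 and ZNF729. MYO1D, encoding an unconventional myosin, held ZKSCAN7, ZNF251, ZNF746 and ZNF763 (109 to 403), and CDH11, encoding a cadherin, held ZNF195, ZNF251, ZNF416 and ZNF850 (83.9 to 426). The last was an exon of a non-coding gene on the X chromosome with ZFP28, ZKSCAN4, ZNF160 and ZNF729 (82.0 to 193).

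**Figure D3:**
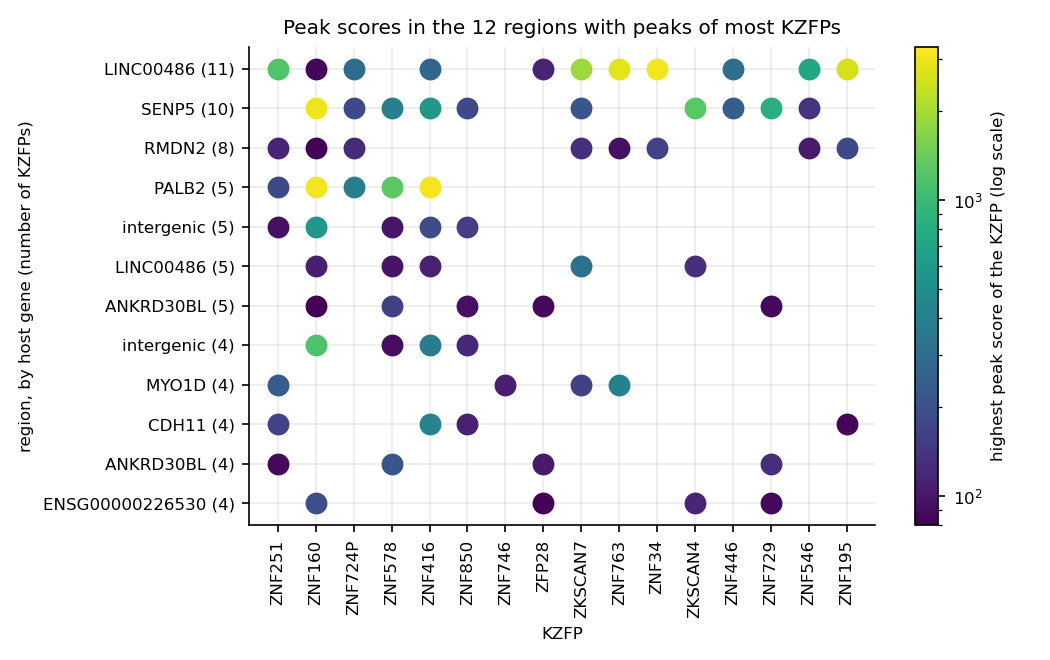
Highest peak score of each KZFP (color, log scale) in the 12 regions with peaks of most KZFPs, named by their host gene with the number of KZFPs. Scores over 1000 fell in the regions at LINC00486, SENP5, PALB2 and an intergenic region, and the other 8 regions had scores under 600.

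The word TGCTTGAAAA was found in the middle 200 bp of 16 of the 21 regions of ZNF160 and ZNF416. Both strands were searched, and no overlap with another word was required. It was held by 38 of the 27834 regions of 1 KZFP (0.137%), namely by 28 of the 5634 of ZNF160 and by 0 of the 26 of ZNF416. The 16 sites had a C before the word in 14 and TC in 9, and the A that closes it ran on for 10 to 22 bases. They included the PALB2 region, an intergenic X chromosome region scored 3100 for ZNF160 and 1637 for ZNF416, and an intron of MAML3, a Notch coactivator, scored 2634 and 272. Among the 65 ZNF416 peaks above 80, 8 of the 20 highest were at such a site. ZNF578 had 28 shared regions, and 7 of them held the word at any position, against 1 of its 679 others. However, 6 of these 7 were also regions of ZNF160 and ZNF416, from which the word was taken, so they are no separate count. The other, in UBE2U with ZNF251, had an A run of only 4 bases. The 5 regions of the pair without the word had peaks of 3 or more KZFPs, the LINC00486 and SENP5 regions among them. The word was picked after its counts were seen and has no test. Its first 6 letters are also those that end the indexed Illumina adapter, and a read that runs past a short fragment can carry the adapter's end. Reads were not analysed here, and the part of adapter sequence in these peaks was not tested. Without the regions of this pair, 170 shared regions remained.

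The words of single KZFPs gave a second view of the pairs. For 9 KZFPs with at least 100 regions of their own, the 10-letter word was taken that best set apart their own regions on odd-numbered chromosomes, among words in at most 1% of the others. It was then counted in the 200 bp at the peak midpoint on the remaining chromosomes and in shared regions, neither of which its choice had used. The word of ZNF251, CTAAGTGAAA, was in 1854 of 9521 of its own regions (19.5%) and in 1 of its 134 shared regions (0.746%, exact 95% interval 0.0189 to 4.09). ZNF578 (CCTCAGGACC) had its word in 61.4% of 342 regions of its own and in 2 of 28 shared ones, and ZNF160 (AGAAGAAAGA) in 20.3% of 2918 and in 6 of 80. The intervals of own and shared regions did not overlap for these 3 KZFPs. ZFP28 (AAGAAATAGA) had 110 of 430 and 1 of 19, with intervals that overlapped. By contrast ZNF724P (AAAGTCCAAG) had its word in 91 of 222 regions of its own (41.0%) and in 13 of 30 shared ones (43.3%, 25.5 to 62.6). ZNF746 (CCCTCCCTCC) had 20 of 101 against 4 of 20, and ZNF850 (AGCCCCTCTC) 103 of 192 (53.6%) against 8 of 24 (33.3%, 15.6 to 55.3). For ZKSCAN7 (TAATAAAAAA) the counts were 13 of 141 and 2 of 18, and for ZNF763 (CGGACGGGGC) 9 of 66 and 0 of 15. In regions of other KZFPs these words were in 0.00712% to 0.551%. The intervals cover counting error only, with 1 library per KZFP.

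**Figure D4:**
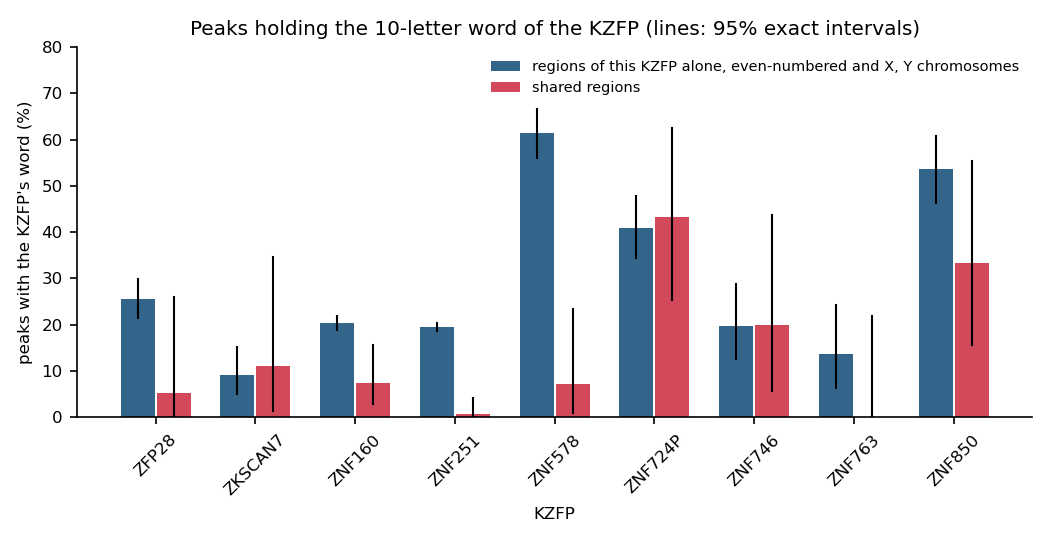
Percentage of a KZFP's regions with its 10-letter word within 200 bp at the peak midpoint, for its own regions on chromosomes not used to choose the word (blue) and for its shared regions (red), with exact 95% intervals. The intervals of own and shared regions lay apart for ZNF160, ZNF251 and ZNF578, and ZNF724P had the word in 41.0% and 43.3%.

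Read by pair, each word was counted only in the 200 bp at the midpoint of that KZFP's own peak. The rest of the region was not searched. In these stretches, the regions that ZNF251 shared with ZNF724P, ZNF850 and ZNF746 held the word of the partner or neither word. Of the 27 regions with ZNF724P, 13 had the ZNF724P word and 0 the ZNF251 word. The 16 regions with ZNF850 counted 8 and 0, and the 18 with ZNF746 counted 4 and 0. The 4 stretches printed above were chosen from the 13 ZNF724P sites, and some of the others had unlike bases around the word. ZNF251 and ZNF578 had 1 region with the ZNF578 word among 15 and 0 with the ZNF251 word. ZNF160 and ZNF251 had the ZNF160 word in 5 of 44 regions and the ZNF251 word in 1. Of the 21 regions of ZNF160 and ZNF416, 1 held the ZNF160 word.

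The host genes and promoters of the shared regions were compared with those of the other regions. A region was counted at a promoter when a peak lay within 2500 bp of a transcription start site (TSS) of GENCODE release 44. Of the shared regions 63 were at a TSS (33.0%, exact 95% interval 26.4 to 40.1), against 19.9% of regions of 1 KZFP (19.4 to 20.4). At a TSS of protein-coding transcripts there were 40 (20.9%, 15.4 to 27.4) against 10.3%. These shares mix the KZFPs in other proportions. The difference was therefore tested within libraries, over the 14 libraries with at least 5 peaks in each kind of region. The share of peaks at a TSS was a mean of 33.8% in shared and 30.1% in single regions. It was higher in shared regions by 3.61 percentage points ± 14.2 (SD, n = 14), with 8 libraries higher and 6 lower (exact two-sided sign-flip permutation test, p = 0.355, adjusted p = 0.444 over 5 tests). The difference was thus smaller than the spread between libraries. ZNF578 had 39.3% of 28 shared peaks at a TSS and 16.3% of 679 others, ZNF416 29.6% of 27 and 3.85% of 26, ZNF251 38.1% of 134 and 22.9% of 18780, and ZNF160 18.5% of 81 and 7.33% of 5634. ZNF546 went the other way, at 57.1% of 7 and 81.8% of 11, as did ZNF763, at 33.3% of 15 and 45.6% of 147. ZNF746, a KZFP with most of its peaks at promoters, had 90.5% of 21 and 91.8% of 219. Shared regions were counted in each library with a peak there, so that the libraries are not fully independent.

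**Figure D5:**
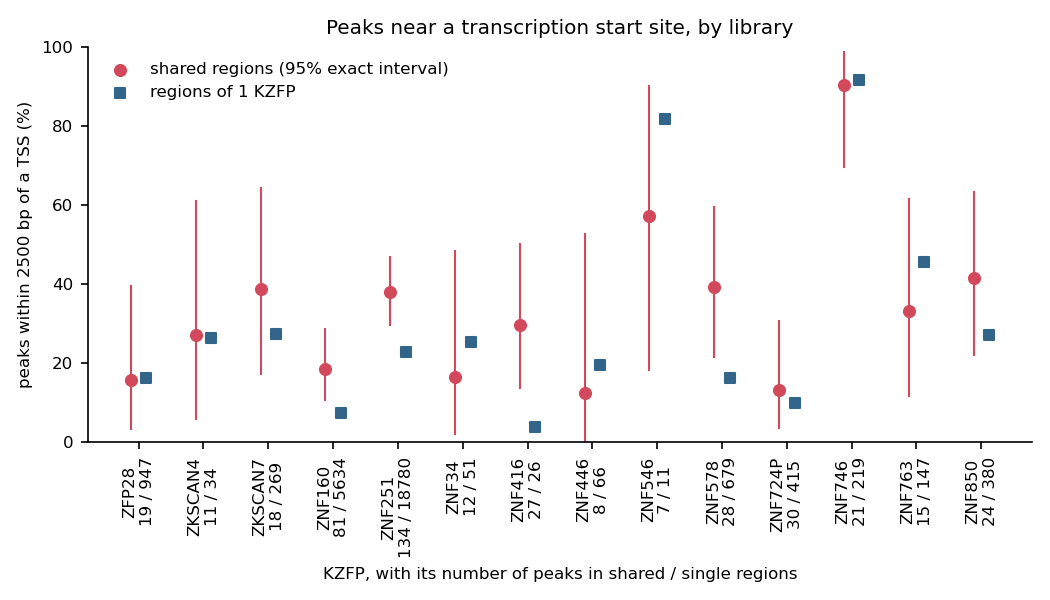
Percentage of each library's peaks within 2500 bp of a TSS in shared regions (circles, exact 95% intervals) and in regions of 1 KZFP (squares), with the number of peaks of each kind. Points were higher in shared regions for 8 of 14 libraries, and ZNF746 stood above 90% in both.

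The share of promoters is given by pair, as a description. Of the 18 regions of ZNF251 and ZNF746, 16 were at a TSS (88.9%) and 15 at a protein-coding TSS, with a median GC content of 74.0% in the middle 200 bp. The share at a TSS was near that of ZNF746 peaks outside shared regions (201 of 219, 91.8%). These included TSS of ATP2A2, encoding a calcium pump of the endoplasmic reticulum (scores of 568 for ZNF251 and 292 for ZNF746), of ASH1L, a histone methyltransferase (460 and 189), of the homeobox gene HOXB9 (144 and 325), of PPM1D, a phosphatase that acts on p53 signaling (512 and 128), of the transcription factor TFAP2A (197 and 98.2) and of the ligand BMP7 (447 and 89.1). SMAD6, an inhibitory SMAD, lay 532 bp from such a region (821 and 136). MLLT10 had 2 regions of the pair in its body. ZNF251 was at a TSS in 8 of 16 regions with ZNF850 and in 7 of 15 with ZNF578, such as that of CDC42BPA, a kinase (340 and 221). The rate was lower for ZNF251 with ZNF724P (4 of 27), for ZNF160 with ZNF416 (4 of 21) and for ZNF160 with ZNF251 (9 of 44). Without the ZNF746 library, 26.6% of shared regions were at a TSS.

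Of the shared regions at a protein-coding TSS, those with most KZFPs were at PALB2, at CDH11 and at CDC27, a subunit of the anaphase-promoting complex, with peaks of ZFP28, ZKSCAN4, ZNF416 and ZNF578 (81.6 to 121). TSPAN7, encoding a tetraspanin, followed with ZNF251 (211), ZNF416 (117) and ZNF546 (243), and BMP8B, a BMP ligand, with ZNF251 (154), ZNF546 (186) and ZNF724P (81.8). The 37 shared regions with a GC content above 55% and a CpG ratio (observed to expected) above 0.6 were 19.4% of the total (14.0 to 25.7), against 5.59% of the others. Both measures were taken in the middle 200 bp of a region. ZNF746 had a peak in 19 of the 37 and in 186 of the 1555 single regions of this kind, so that this share too depends on the mix of KZFPs.

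By position, 63 shared regions were intergenic (33.0%, against 36.6% of single regions), 58 were in introns of protein-coding genes (30.4% against 38.8%) and 23 in introns of non-coding genes (12.0% against 13.9%). Exons held more than in single regions, with 20 regions over an untranslated exon (10.5% against 3.47%) and 14 over a coding exon (7.33% against 3.64%). These pooled shares mix the KZFPs in other proportions: ZNF746, in 20 of the 191 shared regions and 219 of the 27834 others, was in 8 of the 20 and 8 of the 14, and in 104 of the 965 and 37 of the 1014 single regions. Bodies of protein-coding genes held 102 (53.4% against 47.4%). Within the 14 libraries the share of peaks in protein-coding genes was higher by 4.09 points ± 10.2 (SD) in shared regions, with 11 libraries higher (exact permutation test, p = 0.159, adjusted p = 0.265). Of the gene lists, long non-coding RNA genes held 36 shared regions (18.8% against 19.8%). No shared region lay in a zinc finger gene, against 1.28% of single regions. A count of 0 of 191 allows a share of up to 1.57% (3 counts of 191), or 1.91% by the exact 95% interval. The difference was thus not detectable at this number. None lay in a histone gene, against 0.0970%. Genes of rRNA, tRNA or snRNA held 2 (1.05%, exact 95% interval 0.127 to 3.73, against 0.0754% of single regions), namely RNA5S12 (ZNF251 and ZNF763) and RNU6-157P (ZNF160 and ZNF251). Only 5 genes held 2 shared regions each, LINC00486, ANKRD30BL, MLLT10, PPM1D and a long non-coding RNA gene without a symbol.

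For base composition and repeats, the mean differences within libraries were smaller than the spread between libraries. The GC content of the 200 bp at the peak midpoint was higher in shared regions by 1.89 points ± 4.11 (SD, n = 14), with 10 libraries higher (exact permutation test, p = 0.110, adjusted p = 0.265). Peaks with at least 50% of bases marked as repeated by WindowMasker were more frequent by 3.23 points ± 18.9 (SD), with 7 libraries higher and 7 lower (exact permutation test, p = 0.541). ZNF578 had 39.3% of its shared peaks and 71.9% of the others in such sequence, while ZKSCAN4 had 54.5% and 26.5%.

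Weak peaks, those deposited with a score of 50 to 80, did not enter the rule. They come from the same peak lists and are parted from the peaks used only by the rule's own threshold. The rule picked regions with signal in several libraries, so the test below gives no independent support for the sharing. It describes how often further libraries had weak peaks in the same regions. Of the shared regions 39 (20.4%, exact 95% interval 14.9 to 26.8) overlapped a weak peak of a KZFP that was not among their own, against 338 regions of 1 KZFP (1.21%). Within libraries the share was higher in shared regions by 2.11 points ± 1.89 (SD, n = 21), from a mean of 2.2% against 0.0897%. It was higher in 16 of 21 libraries (exact two-sided permutation test, p = 3.05e-05, adjusted p = 0.000153). All libraries were scored on largely the same shared regions, and 1 region can hold weak peaks of several. The libraries are therefore not fully independent here either, and the p-value takes no account of this. The 5 libraries with a lower share were 5 of the 6 ChIP-seq libraries, those of ZNF20, ZNF213, ZNF256, ZNF597 and ZNF746. None of them had a weak peak in a shared region. In single regions they had weak peaks in 4, 1, 1, 1 and 22 regions, at most 0.0797%. At such low shares a count of 0 in 171 to 191 shared regions cannot show a difference between the assays. ZNF251 (4 of 57 regions, 7.02%), ZNF546 (10 of 184, 5.43%), ZNF850 (8 of 167, 4.79%) and ZNF724P (7 of 161, 4.35%) had the highest shares. The most weak peaks, of 7 KZFPs, were at an untranslated exon of SENP2, another SUMO protease, next to the peaks of ZNF724P, ZNF763 and ZNF850 (86.9 to 117). CDC27 and EFHC2 followed with 4 each. The increase was 2.08 points when only the central 200 bp of each region counted, and 0.714 points when regions of 3 or more KZFPs were left out (exact permutation test, p = 0.00514, adjusted p = 0.0257), a limit set after the data were seen.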

How the data were processed

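The authors mapped reads to hg19 with Bowtie2 (version 2.2.1 in the submitters' processing notes) and called peaks in each library with MACS 1.4, ChIP-seq against a total input and ChIP-exo with a control handled as in earlier work of theirs. The deposited files list each peak with its score, the negative log10 of the p-value multiplied by 10, from 50 upwards, and 103 peaks sit at exactly 3100. Scores depend on read depth, which the peak lists do not give. They were used with 1 threshold for all libraries and to rank regions, so that ranks across libraries depend on depth. The 2 total inputs have no peaks and were not used here.

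The members and gene lists were chosen with earlier results of these data known. Regions named were the 12 with most KZFPs, the 2 highest of each of the 8 most frequent pairs, 10 at a protein-coding TSS and those at the thresholds, some of which are not reported here, nor are some of their sequences. Words other than those of single KZFPs, and some printed sites, were chosen after their values were seen. Libraries with at least 5 peaks of each kind entered exact sign-flip permutation tests (NumPy 2.4.6), with Benjamini-Hochberg adjustment over 5 tests. The test was tested on simulated data: it gave p under 0.05 in 8 of 100 simulations without a TSS difference and in 100 of 100 with a difference of 20 points. The simulated libraries were drawn independently, so that these rates do not cover regions counted in several libraries. The weak-peak comparison was not simulated. With 1 library per KZFP, p-values measure the spread between libraries, and intervals cover counting error only. Repeats were marked by WindowMasker 1.0.0, and copies counted with BLAST+ 2.17.0. GENCODE 44 on hg19 gave 254376 transcripts.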

Additional observations from a re-analysis of the deposited data

How the results depend on the processing

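No paired analysis was possible because each KZFP had 1 library, so that no replicate numbers pair samples. The differences within libraries compare peaks of the same library. The number of shared regions was 771 with all deposited peaks, 127 with scores above 100, 58 with scores above 150, 321 with regions near gaps kept, 69 without ZNF251 and 126 without ZNF160, in place of 191. The sum over the 8 most frequent pairs, 162, was in the same order 361, 98, 46, 261, 42 and 86. The share at a TSS, 33.0%, was 24.9% with regions near gaps kept, 26.3% for ChIP-exo libraries only, 24.6% without ZNF251, 40.5% without ZNF160, 26.2% with a window of 1000 bp and 20.9% for protein-coding transcripts.

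The TSS difference within libraries passed the threshold with all deposited peaks (8.09 points, exact permutation test, adjusted p = 7.63e-05), and turned to -0.294 with regions near gaps kept and -0.560 for protein-coding transcripts. Dropping 1 library's difference from the mean, with the regions kept, gave 1.91 (without ZNF416) to 5.79 (without ZNF546). With the regions merged again without the ZNF251 or the ZNF160 library, the TSS difference was 1.58 and 4.82, the GC difference 1.91 and 3.33, and the repeat difference 13.5 and 7.06 points, all on the same side of the threshold as with all libraries. The GC difference was 2.45 points with all deposited peaks (exact test, adjusted p = 0.00381) and 1.55 (without ZFP28) to 2.64 with 1 library dropped from the mean, passing the threshold without ZNF546 (exact test, adjusted p = 0.0342). The repeat difference was 8.72 points with all deposited peaks and 15.9 with regions near gaps kept, both past the threshold. It turned to -7.12 with scores above 150, -12.0 without regions of 3 or more KZFPs (exact test, adjusted p = 0.0488) and -3.92 without the ZNF160 and ZNF416 regions, and ranged from 0.178 (without ZNF546) to 5.98 (without ZNF578) with 1 library dropped from the mean. The difference in protein-coding genes turned to -0.599 with scores above 150, -8.95 with regions near gaps kept (exact test, adjusted p = 0.0195) and -0.493 without regions of 3 or more KZFPs. It ranged from 3.29 (without ZNF578) to 6.38 points in the same way, past the threshold without ZKSCAN4 (exact test, adjusted p = 0.00732). The cause of these changes was not tested. Leaving out regions of 3 or more KZFPs, those of the ZNF160 and ZNF416 pair or the ZNF746 library was chosen after seeing the data. The weak-peak difference stayed past the threshold in every setting run, from 0.714 to 5.62 points. Its weak peaks come from the same lists that the rule used. Scores of 50 to 80 hold weaker evidence, and without replicates the number of shared regions depends on the threshold.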
